A study of Homo sapiens with 12 samples.

Results

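S phase and DNA replication genes were examined in RNA-seq data from 12Z cells, an immortalized human epithelial line derived from endometriosis, a disease in which tissue like the lining of the uterus grows outside it. The set holds 44 genes, chosen by symbol and matched by Ensembl gene identifier. All 44 were found among the 60617 identifiers of each count file, and all 44 averaged at least 1 count per library and so were among the 22756 genes tested. They were split by function into 9 roles, which run here from the licensing of origins to the assembly of chromatin. All cells had received a pool of non-targeting siRNA and then, by transient transfection, a pBabe plasmid. It was either the empty vector (control cells) or the vector with PIK3CA H1047R (H1047R cells), which encodes the catalytic subunit p110α of phosphoinositide 3-kinase with an activating change in its kinase domain. The plasmid adds to the PIK3CA of the cells themselves. After 4 h without serum, 100 nM insulin or its vehicle was added for 24 h. The 4 groups were H1047R insulin, H1047R vehicle, control insulin and control vehicle, each with 3 libraries that the study describes as independent experiments.

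A eukaryotic cell copies its genome once per cycle. In G1, the origin recognition complex, CDC6 and CDT1 load the ring-shaped MCM2-7 helicase on DNA, a step called licensing. At the start of S phase, CDC45 and the GINS complex join the helicase, primase and DNA polymerase alpha lay down primers, and polymerases delta and epsilon extend them, held to DNA by the clamp PCNA that replication factor C loads. FEN1 and LIG1 finish the lagging strand, ribonucleotide reductase and thymidylate synthase supply nucleotides, and CAF-1 places histones on the new DNA. Transcription of many of these genes is driven by E2F factors, which RB holds back until cyclin-dependent kinases phosphorylate it. Insulin and phosphoinositide 3-kinase are known as growth signals that act on entry into the cycle.

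Total gene counts were 30071951 to 37918025 in H1047R insulin and 21483124 to 29255708 in the other 9 libraries. The share of reads placed at several sites, which are not counted, was 8.48 to 9.51% in H1047R insulin and 13.6 to 15.4% in the others, and its part in the results below was not tested. PIK3CA, the gene on the plasmid, had 734, 714 and 715 CPM in H1047R insulin libraries, 312, 180.1 and 215 in H1047R vehicle, 81.1, 85.9 and 80.9 in control insulin and 89.0, 88.2 and 88.7 in control vehicle. It was higher in every H1047R library than in every control library. It was also higher with insulin than with vehicle in H1047R cells (1.62 ± 0.0839, adjusted p = 5.33e-19), so an effect of insulin and one of more PIK3CA mRNA cannot be told apart there. Defining markers of the labelled cell type were in part at low levels: KRT8, KRT18 and KRT19, keratins of simple epithelia, averaged 1428, 982 and 657 CPM over the 12 libraries, but EPCAM and CDH1 averaged 0.599 and 1.74 CPM. Stromal genes ranged widely: COL1A1, VIM and COL3A1 were highest of the 10 listed, at 2666, 2008 and 1797 CPM. PDGFRA and HAND2 were lowest, at 16.1 and 23.6 CPM. The 10 stromal and fibroblast markers summed to 5726 ± 116 CPM in H1047R insulin, 7744 ± 147 in H1047R vehicle, 7841 ± 222 in control insulin and 8091 ± 25.9 in control vehicle. In H1047R cells, 9 of these 10 fell and VIM rose with insulin, and the part of this shift in the values below was not tested. The 5 leukocyte markers summed to 0.719 to 1.80 CPM. The 5 endothelial markers averaged 4.35 (KDR), 2.51 (VWF), 1.18 (CDH5), 0.210 (PECAM1) and 0.0581 CPM (TEK).

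Levels are given in CPM, counts scaled to a common library size after TMM scaling, and log2 fold changes with their standard error (SE). Genes were called with edgeR at a false discovery rate below 0.001, adjusted over all genes tested, and every adjusted p below comes from that test unless DESeq2 is named. In H1047R cells, insulin raised 4 members and lowered 8. CDC6 and ORC1, which license origins, CLSPN, an adaptor of the replication checkpoint, and PRIM2, the large primase subunit, rose. LIG1, PRIM1, RFC3, GINS2, RRM1, MCM6, MCM4 and PCNA, which belong to the fork machinery or supply its nucleotides, fell. All changes were small: the largest log2 fold change was -0.37 for LIG1. The 12 called members are 27.3% of the set, against 19.6% of all genes tested, and against 37.4% of the 9602 tested genes that averaged at least 10 CPM. By direction, 9.85% of all genes tested rose and 9.8% fell. The median log2 fold change was -0.044 over the members and -0.00061 over all genes tested. The libraries of the H1047R insulin and H1047R vehicle groups did not overlap for 27 members, 61.4%, against 44.8% of all genes tested, and all 12 called members were among the 27. Without H1047R insulin replicate 1, 3 members rose and 5 fell. In bulk RNA, fewer cells in S phase and less RNA per cell cannot be told apart.

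Insulin in control cells gave no called member, where 1.63% of all genes tested were called. In all genes tested, 0.483% were higher and 1.15% lower, and of those averaging at least 10 CPM 3.6% were called. At an unadjusted p below 0.05, 5 members were higher and 4 lower with edgeR, 20.5% of the set against 16.4% of all genes tested, and DESeq2 also called 0 members. The lowest adjusted p was that of CDT1, which had a log2 fold change of -0.27 ± 0.0588, adjusted p = 0.00209, so it was just outside the threshold. It passed the threshold in 5 of 20 other settings, among them without H1047R vehicle replicate 1, control insulin replicate 3 or control vehicle replicate 1 (-0.33 to -0.28, adjusted p = 0.000289 to 0.000930). The 2 groups of libraries did not overlap for 13 members, 29.5%, against 20.3% of all genes tested. The insulin effect itself differed between H1047R and control cells for 4 members, 9.09% of the set, against 9.07% of all genes tested (4.58% higher and 4.49% lower) and 18.4% of those averaging at least 10 CPM. CDT1 had a higher insulin effect in H1047R cells, and RFC3, GINS2 and RRM1 a lower one. Of these calls, those of RFC3 and RRM1 held without any 1 of the 12 libraries, and without H1047R vehicle replicate 1 there were 3 higher and 3 lower.

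Among insulin-treated cells, H1047R against control cells gave the most calls, 6 higher and 12 lower, 40.9% of the members. The share was 23.5% of all genes tested and 43.4% of those averaging at least 10 CPM, and 11.4% of all genes were higher and 12.0% lower. CDT1, ORC1, CDC6, PRIM2, CLSPN and MCM10 were higher, while RFC3, GINS2, LIG1, GINS1, PCNA, RRM1, PRIM1, MCM6, TYMS, UNG, RRM2 and MCM4 were lower. Without H1047R insulin replicate 1, 5 were higher and 7 lower. The groups did not overlap for 30 members, 68.2%, against 48.5% of all genes tested. Without insulin, H1047R against control cells gave 0 called members, where 0.158% of all genes tested were called (0.141% higher and 0.0176% lower) and 0.344% of those averaging at least 10 CPM. At an unadjusted p below 0.05, edgeR had 5 members higher and 1 lower in this comparison, 13.6% against 11.9% of all genes tested, and DESeq2 called 0. Groups did not overlap for 15 members here, 34.1%, against 14.4% of all genes tested. These comparisons share the H1047R insulin or control libraries with those above. In the map of all members by library, the 3 H1047R insulin libraries were above the 9 others for 7 members and below them for 15, against 15.9% of all genes tested above and 15.2% below.

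**Figure D1:**
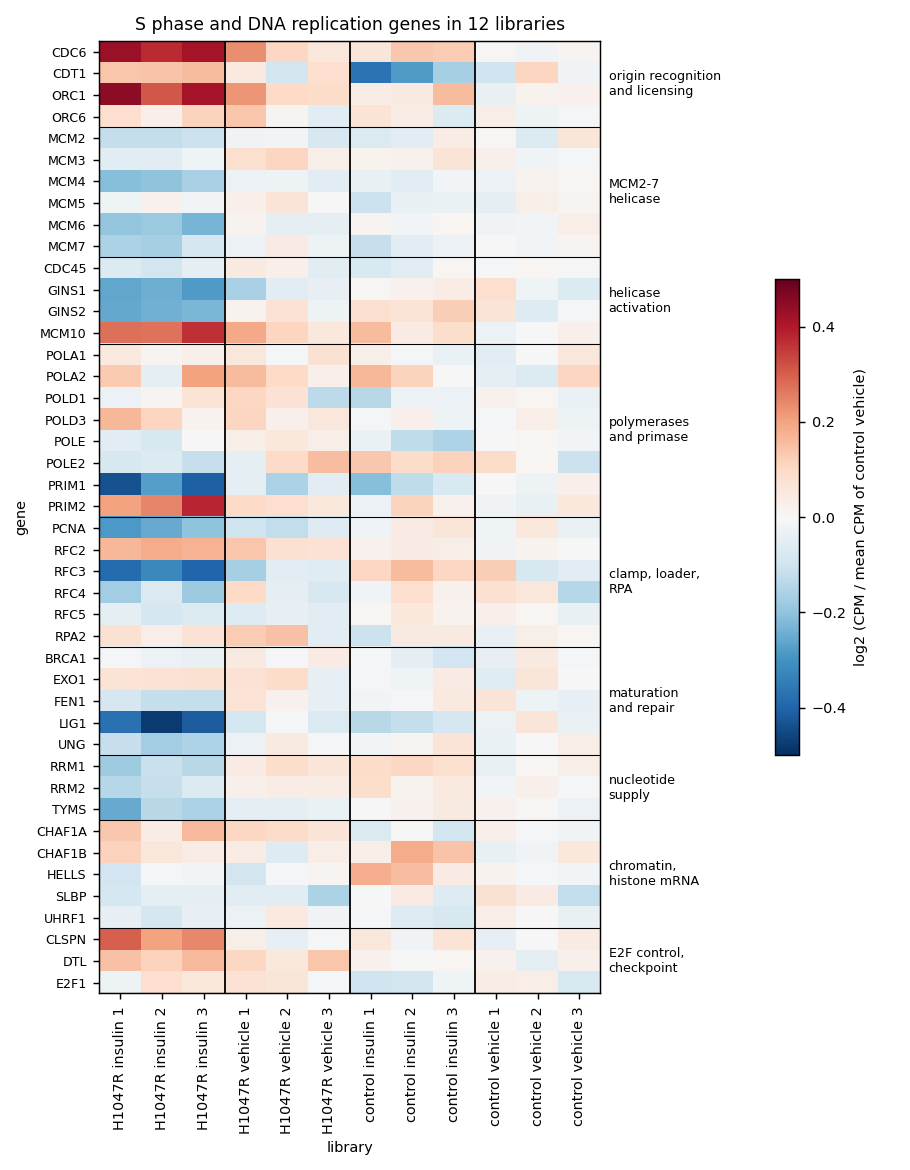
Level of each of the 44 genes (vertical axis, grouped by role) in each of the 12 libraries (horizontal axis) as the log2 ratio of its CPM to the mean of the 3 control vehicle libraries. The H1047R insulin libraries show the darkest red for CDC6, ORC1, CLSPN, MCM10 and PRIM2 and the darkest blue for LIG1, RFC3, PRIM1, GINS1 and PCNA.

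The upstream sequences of these genes were read from RefSeq promoters (GRCh38.p14), which run from 250 bases before to 50 after the start site and matched 40 of the 44 members. The letters TTTNNCGC, a form of the E2F site, were found on either strand in a promoter of 25 of the 40 members (62.5%), against 8.23% of the 27305 genes with a promoter in the table and 6.89% of its 35116 promoters. CCAAT, the box bound by NF-Y, was in 62.5% of members and 39.7% of all genes, and TTTGAA, the core of the CHR element of G2 and M phase genes, in 2 of 40 members (5%) and 18.2% of all genes. The E2F letters were found in 2 of 4 members that rose with insulin in H1047R cells, in 5 of 7 that fell and in 18 of 29 that were not called. A gene with several start sites was counted once, matches of different motifs were counted apart even where they overlap, and a match is a description of letters and not a binding site. Windows of 30 bases around a match are shown for CDT1, whose insulin effect was higher in H1047R than in control cells, and for 5 members that fell with insulin in H1047R cells. Capitals mark the E2F letters on either strand, and in MCM6 a pair of matches overlaps.
CDT1 (chr16:88803743-88803772, plus strand): ccagggcgcccGCGGGAAAtttggcgggaa
MCM6 (chr2:135876511-135876540, minus strand): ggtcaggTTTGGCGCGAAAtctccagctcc
GINS2 (chr16:85688967-85688996, minus strand): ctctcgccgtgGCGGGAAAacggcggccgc
PCNA (chr20:5126663-5126692, minus strand): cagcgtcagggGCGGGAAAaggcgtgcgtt
RFC3 (chr13:33818083-33818112, plus strand): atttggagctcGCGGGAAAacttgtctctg
LIG1 (chr19:48170440-48170469, minus strand): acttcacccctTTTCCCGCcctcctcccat

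Longer stretches of 240 bases, from 250 to 11 bases before the start site, are shown for CDT1 and PCNA, members that moved in opposite directions between H1047R and control cells in insulin. In CDT1 the capitals mark a pair of E2F matches and no CCAAT match was found. In PCNA the capitals mark 1 E2F match and 3 CCAAT matches, and neither stretch overlaps an annotated exon of a protein-coding gene.
CDT1 (chr16:88803539-88803778, plus strand): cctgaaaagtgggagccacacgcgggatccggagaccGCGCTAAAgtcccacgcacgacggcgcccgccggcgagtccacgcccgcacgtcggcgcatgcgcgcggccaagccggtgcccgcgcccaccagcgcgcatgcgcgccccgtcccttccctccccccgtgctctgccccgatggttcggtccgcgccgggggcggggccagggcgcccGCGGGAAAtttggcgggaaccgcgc
PCNA (chr20:5126633-5126872, minus strand): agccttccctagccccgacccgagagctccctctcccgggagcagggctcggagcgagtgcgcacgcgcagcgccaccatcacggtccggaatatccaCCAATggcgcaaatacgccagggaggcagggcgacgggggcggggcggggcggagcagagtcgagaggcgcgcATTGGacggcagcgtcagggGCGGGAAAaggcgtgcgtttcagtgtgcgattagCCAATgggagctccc

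**Figure D2:**
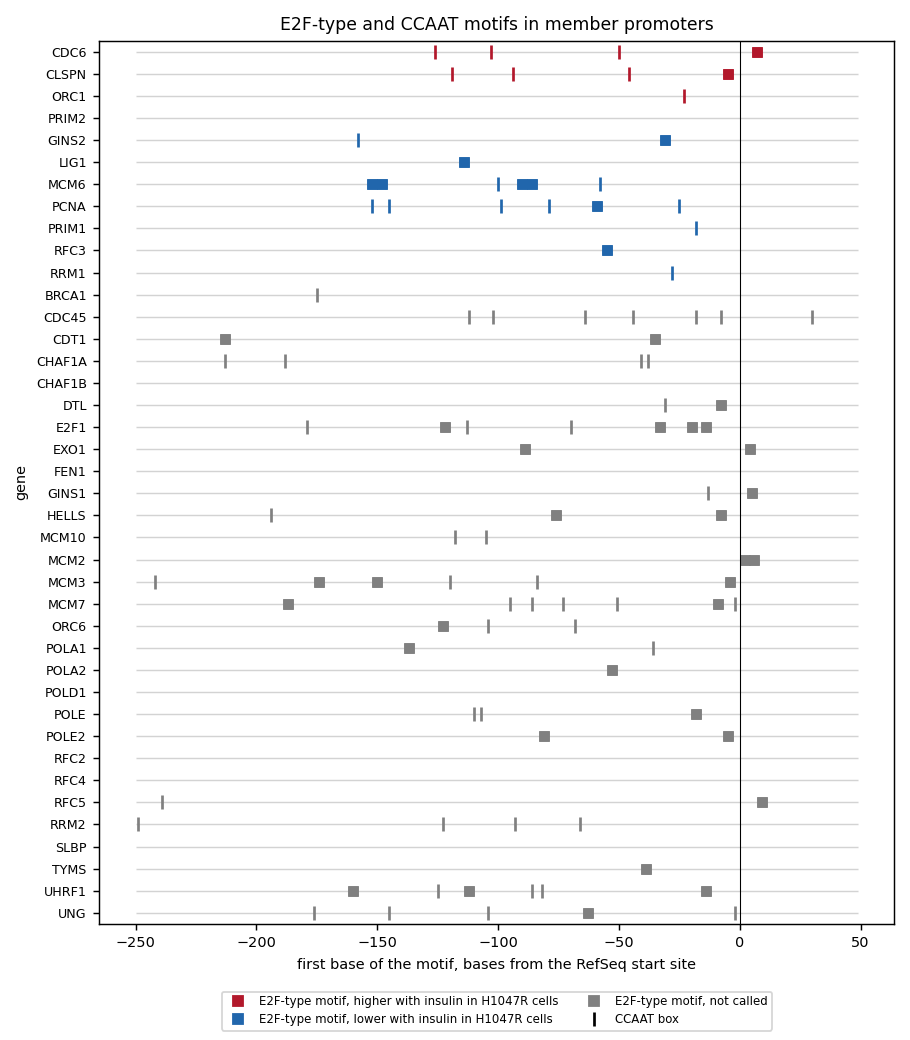
Position of each E2F-type match (squares) and each CCAAT box (ticks) in the RefSeq promoters of 40 members, with all start sites of a gene on 1 line, as bases from the RefSeq start site (horizontal axis), with genes on the vertical axis coloured by their call for insulin in H1047R cells. E2F matches are found in promoters of genes that rose, fell and were not called.

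Per length of transcript, PCNA was the most abundant member, at 386 CPM per kb on average over the 12 libraries. MCM7 (228), RRM2 (152), RRM1 (140.5), TYMS (139) and MCM3 (136 CPM per kb) followed. CHAF1B (12.5) and POLA2 (2.73 CPM per kb) were lowest, and 55.8% of the POLA2 transcript overlaps another gene on the same strand, where reads count for neither gene. Reads that also fit elsewhere are not counted, and pseudogenes named after them are annotated for 10 members, among them PCNA, RPA2 and RRM2 with 3 each. The members varied little: the highest library was 1.10 to 1.47 times the lowest, with a median of 1.19. Within a group, the median coefficient of variation over members was 2.25% in H1047R insulin, 3.02% in H1047R vehicle, 2.87% in control insulin and 2.41% in control vehicle. Summed over all 44 members, the level was 6988 ± 71.2 CPM in H1047R insulin, 7378 ± 71.9 in H1047R vehicle, 7356 ± 64.9 in control insulin and 7333 ± 24.2 in control vehicle (SD, n = 3 each). The H1047R insulin libraries thus had the lowest sums, 6939 to 7069.7 CPM, with no overlap with the 7292 to 7425 CPM of the other 9.

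Of the licensing genes, CDC6 and ORC1 rose with insulin in H1047R cells. All 4 had positive log2 fold changes for insulin in H1047R cells, also with DESeq2 size factors and with library totals. Of the 4, 2 were called, 50% against 19.6% of all genes tested and 37.4% of those averaging at least 10 CPM. The 4 genes summed to 409.5 ± 10.4 CPM in H1047R insulin, 353 ± 19.3 in H1047R vehicle, 339 ± 6.80 in control insulin and 329.9 ± 2.25 in control vehicle. CDC6 (chromosome 17, 40287879 to 40304657, hg38), the ATPase that recruits the helicase to origins, had 218, 209 and 216 CPM in H1047R insulin libraries, 190.0, 174 and 168 in H1047R vehicle, 169, 178 and 177 in control insulin and 162, 159.7 and 163 in control vehicle. All 3 H1047R insulin libraries were above the 9 others. The insulin effect was 0.27 ± 0.0416, adjusted p = 8.17e-07 in H1047R cells and 0.11 ± 0.0422, adjusted p = 0.155 in control cells. The difference of these effects was 0.17 ± 0.0592, adjusted p = 0.0367, and among insulin-treated cells H1047R was higher by 0.30 ± 0.0414, adjusted p = 1.02e-07. ORC1 (chromosome 1, 52372829 to 52404423), the subunit of the origin recognition complex whose level moves with the cycle, had 81.9, 74.4 and 80.1 CPM in H1047R insulin libraries, 69.9, 64.4 and 64.0 in H1047R vehicle, 61.7, 62.0 and 67.0 in control insulin and 58.5, 60.8 and 60.9 in control vehicle. Again no H1047R insulin library reached down to the others. ORC1 rose with insulin in H1047R cells (0.25 ± 0.0486, adjusted p = 4.60e-05), though the call was lost without H1047R insulin replicate 1 (0.23, adjusted p = 0.00110), and it was higher in H1047R than in control cells given insulin (0.31 ± 0.0483, adjusted p = 1.11e-06). Without insulin, CDC6 and ORC1 were the members with the lowest unadjusted p for H1047R against control, with log2 fold changes of 0.13 and 0.14 and adjusted p of 0.125 and 0.199 in edgeR, so neither was called.

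CDT1 (chromosome 16, 88803789 to 88809258), which brings MCM2-7 to the origin and is degraded once S phase begins, had log2 fold changes for insulin of opposite sign in H1047R and control cells. It had 49.8, 49.9 and 50.4 CPM in H1047R insulin libraries, 46.8, 42.4 and 47.9 in H1047R vehicle, 35.0, 37.2 and 40.3 in control insulin and 42.2, 48.8 and 44.7 in control vehicle. The H1047R insulin libraries were above all others and the control insulin libraries below all others. Insulin gave 0.13 ± 0.0565, adjusted p = 0.0681 in H1047R cells and -0.27 ± 0.0588, adjusted p = 0.00209 in control cells, neither past the threshold, but the difference of the effects was 0.40 ± 0.0815, adjusted p = 0.000215. That call was lost without H1047R vehicle replicate 2, control insulin replicate 1 or 2 or control vehicle replicate 2 (0.34 to 0.40, adjusted p = 0.00101 to 0.00269). Among insulin-treated cells, CDT1 was the member with the largest rise in H1047R over control cells (0.42 ± 0.0569, adjusted p = 7.97e-08), and without insulin its log2 fold change was 0.014 (adjusted p = 0.960). ORC6, the smallest subunit of the origin recognition complex, averaged 66.1 ± 2.07 CPM in H1047R insulin, 64.3 ± 4.37 in H1047R vehicle, 63.4 ± 3.09 in control insulin and 62.8 ± 1.33 in control vehicle, and it was called in none of these comparisons (adjusted p from 0.378 to 0.932 in edgeR).

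**Figure D3:**
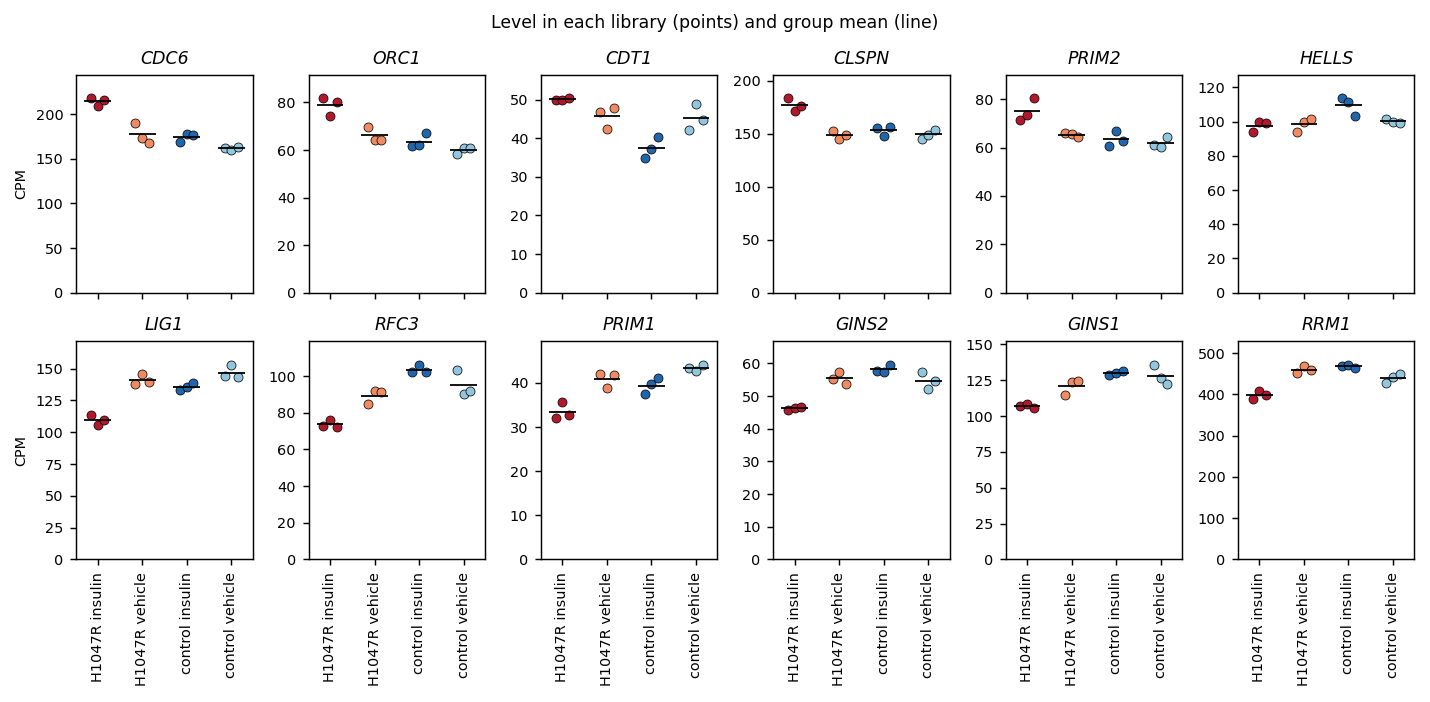
Level in CPM (vertical axis, starting at 0) of 12 genes in each library, with H1047R insulin, H1047R vehicle, control insulin and control vehicle from left to right, points for the 3 libraries and a line for their mean. CDC6, ORC1, CDT1, CLSPN and PRIM2 have their highest points in H1047R insulin, LIG1, RFC3, PRIM1, GINS2, GINS1 and RRM1 their lowest, and HELLS has its highest in control insulin.

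The MCM2-7 genes, which encode the ring of the replicative helicase, had the opposite sign. All 6 had negative log2 fold changes for insulin in H1047R cells, from -0.18 for MCM6 to -0.035 for MCM5. The signs held with DESeq2 size factors and with library totals. Of the 6, 2 were called, 33.3% against 19.6% of all genes tested and 37.4% of those averaging at least 10 CPM. Their sum was 2155 ± 27.9 CPM in H1047R insulin, 2343 ± 43.5 in H1047R vehicle, 2299.9 ± 46.7 in control insulin and 2344 ± 25.3 in control vehicle. MCM7 (chromosome 7, 100092233 to 100101940), the most abundant of the 6 per length, had 522, 519.7 and 549.6 CPM in H1047R insulin libraries, 571, 599.9 and 573 in H1047R vehicle, 537, 561 and 571 in control insulin and 581, 578 and 589 in control vehicle. Its insulin effect in H1047R cells, -0.13 ± 0.0361, adjusted p = 0.00330, did not pass the threshold, although the libraries of both groups did not overlap. MCM6 had 223, 225 and 218 CPM in H1047R insulin libraries, against 259, 248 and 247 CPM in H1047R vehicle libraries. This fall was called (-0.18 ± 0.0372, adjusted p = 0.000134), as was the lower level in H1047R than in control cells given insulin (-0.21 ± 0.0370, adjusted p = 1.15e-05). The call for insulin was lost without H1047R insulin replicate 3 or H1047R vehicle replicate 1 (-0.17 to -0.13, adjusted p = 0.00247 to 0.00853). MCM4 had 454, 457 and 470.0 CPM in H1047R insulin libraries, against 515, 516 and 505 CPM in H1047R vehicle libraries. It fell in both comparisons (-0.15 with insulin in H1047R cells, adjusted p = 0.000367, and -0.16 for H1047R against control in insulin, adjusted p = 0.000226). The insulin call was lost without H1047R insulin replicate 1 or 2 or H1047R vehicle replicate 1 or 2 (-0.15 to -0.12, adjusted p = 0.00334 to 0.00897), and the other without H1047R insulin replicate 1 or 2, H1047R vehicle replicate 1 or control insulin replicate 3 (-0.15 to -0.13, adjusted p = 0.00174 to 0.00296). In all, the MCM4 calls held in 13 of 20 settings for insulin and in 12 of 20 for H1047R against control in insulin. MCM2, MCM3 and MCM5 were not called, and MCM5 had the smallest log2 fold change of the 6 for insulin in H1047R cells. In control cells, 0 of the 6 genes were called for insulin by edgeR or DESeq2, where edgeR called 1.63% of all genes tested. At an unadjusted edgeR p below 0.05 there were 0 of the 6, against 16.4% of all genes tested. Their log2 fold changes there ran from -0.066 for MCM7 to 0.035 for MCM3 (edgeR adjusted p of at least 0.375). The difference of the insulin effects was called for none of the 6, against 9.07% of all genes tested.

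**Figure D4:**
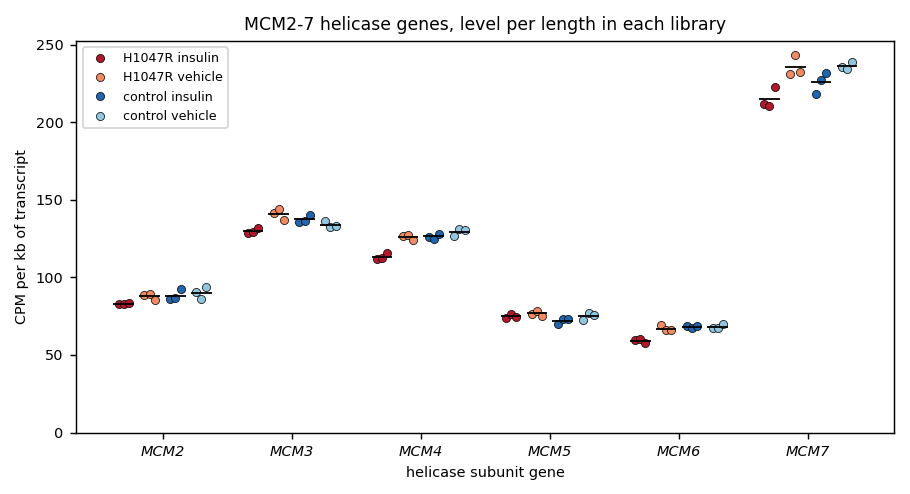
Level of the 6 MCM2-7 genes in CPM per kb of transcript (vertical axis, starting at 0) in each library, with points for libraries and lines for group means, H1047R insulin first within each gene. The H1047R insulin points lie below those of the other groups for MCM2, MCM3, MCM4 and MCM6 and within their range for MCM5, and in MCM7 1 of them overlaps with control insulin.

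Genes that activate the helicase differed in direction. GINS1 and GINS2 encode subunits of the GINS complex, which joins MCM2-7 and CDC45 in the active helicase, and both were lowest in H1047R insulin. GINS2 (chromosome 16, 85676198 to 85690073) had 45.9, 46.3 and 46.7 CPM in H1047R insulin libraries, 55.4, 57.5 and 53.7 in H1047R vehicle, 57.8, 57.4 and 59.7 in control insulin and 57.3, 52.3 and 54.6 in control vehicle. It fell with insulin in H1047R cells (-0.26 ± 0.0484, adjusted p = 2.70e-05), had 0.091 ± 0.0484, adjusted p = 0.358 in control cells, and the insulin effects differed (-0.35 ± 0.0685, adjusted p = 0.000126). The last call was lost without H1047R vehicle replicate 2 or control vehicle replicate 2 (-0.33 to -0.32, adjusted p = 0.00102 to 0.00114). GINS1 (chromosome 20, 25391008 to 25452700) had 107, 108 and 105 CPM in H1047R insulin libraries, 115, 124 and 125 in H1047R vehicle, 129, 130.3 and 132 in control insulin and 136, 127 and 122 in control vehicle. Its insulin effect in H1047R cells fell just outside the threshold (-0.18 ± 0.0434, adjusted p = 0.00104), and it was lower in H1047R than in control cells given insulin (-0.28 ± 0.0431, adjusted p = 6.52e-07). MCM10, which is needed to start the assembled helicase, averaged 72.9 ± 2.72 CPM in H1047R insulin, 64.1 ± 3.07 in H1047R vehicle, 63.0 ± 2.59 in control insulin and 59.0 ± 1.09 in control vehicle. MCM10 was called with edgeR for H1047R against control in insulin (0.21 ± 0.0471, adjusted p = 0.000310), and that call was lost without H1047R insulin replicate 3 or control insulin replicate 2 or 3 (0.18 to 0.21, adjusted p = 0.00184 to 0.00708). For insulin in H1047R cells, DESeq2 called MCM10 (0.20, adjusted p = 0.000654) and GINS1 (-0.17, adjusted p = 0.000673), which edgeR did not. CDC45 averaged 77.7 ± 1.31 CPM in H1047R insulin, 81.8 ± 3.01 in H1047R vehicle, 79.3 ± 2.52 in control insulin and 81.5 ± 0.554 in control vehicle and was not called in any comparison (lowest adjusted p = 0.215 in edgeR).

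Among polymerase and primase genes, the subunits of primase moved apart. PRIM2 (chromosome 6, 57314805 to 57646850), the regulatory large subunit and the most abundant of this role per length, had 71.2, 73.3 and 80.5 CPM in H1047R insulin libraries, 66.1, 65.5 and 64.3 in H1047R vehicle, 60.8, 66.8 and 62.8 in control insulin and 61.2, 60.4 and 64.2 in control vehicle. It rose with insulin in H1047R cells, close to the threshold (0.20 ± 0.0490, adjusted p = 0.000988). The call was lost without H1047R insulin replicate 2 or 3, H1047R vehicle replicate 2 or 3, control insulin replicate 2 or 3 or control vehicle replicate 1 or 2 (0.15 to 0.22, adjusted p = 0.00106 to 0.0315). This PRIM2 call held in 9 of 20 settings in all. PRIM1 (chromosome 12, 56730438 to 56752374), the catalytic small subunit, had 32.0, 35.8 and 32.6 CPM in H1047R insulin libraries, 41.9, 38.9 and 41.8 in H1047R vehicle, 37.4, 39.7 and 41.1 in control insulin and 43.3, 42.6 and 44.2 in control vehicle. It fell with insulin in H1047R cells (-0.29 ± 0.0551, adjusted p = 5.07e-05), a call lost without H1047R insulin replicate 1 (-0.26, adjusted p = 0.00107) and with both strands counted. Of the PRIM1 transcript, 28.9% overlaps other genes on the same strand, among them NACA, and reads there count for neither gene. Against control cells given insulin, PRIM2 was higher (0.24 ± 0.0487, adjusted p = 7.40e-05) and PRIM1 lower (-0.23 ± 0.0547, adjusted p = 0.000554) in H1047R cells. These calls were lost without H1047R insulin replicate 3 or control insulin replicate 1 (0.19 to 0.21, adjusted p = 0.00155 to 0.00435) for PRIM2, and without H1047R insulin replicate 1 or 3, H1047R vehicle replicate 1 or control insulin replicate 2 or 3 (-0.23 to -0.20, adjusted p = 0.00115 to 0.00759) for PRIM1. This PRIM1 call was also lost with DESeq2 (-0.21, adjusted p = 0.00197) and in 4 settings of scaling, filter or samples, and held in 10 of 20 settings in all. The difference of the insulin effects was called for neither gene. POLA1 and POLA2 of polymerase alpha, POLD1 and POLD3 of polymerase delta and POLE and POLE2 of polymerase epsilon were not called in any comparison. Of these 6, POLE2 had the largest log2 fold changes for insulin, -0.16 in H1047R cells (adjusted p = 0.0289) and 0.11 in control cells (adjusted p = 0.353).

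The clamp and 1 subunit of its loader fell. RFC3 (chromosome 13, 33818069 to 33966558), a subunit of replication factor C, had 72.9, 76.1 and 72.3 CPM in H1047R insulin libraries, 84.7, 91.6 and 91.2 in H1047R vehicle, 102, 106 and 102 in control insulin and 104, 90.0 and 91.8 in control vehicle. The 3 H1047R insulin libraries were below all others. RFC3 fell with insulin in H1047R cells (-0.27 ± 0.0483, adjusted p = 1.22e-05), had 0.12 ± 0.0478, adjusted p = 0.149 in control cells, and the effects differed (-0.40 ± 0.0680, adjusted p = 1.92e-05). H1047R against control in insulin gave the largest log2 fold change of any member in the 5 comparisons (-0.49 ± 0.0476, adjusted p = 2.82e-11). These RFC3 calls held without any 1 of the 12 libraries. PCNA (chromosome 20, 5114953 to 5126626), the sliding clamp, had 425, 436 and 451 CPM in H1047R insulin libraries, 484, 477 and 497 in H1047R vehicle, 513, 533 and 541 in control insulin and 511, 538 and 507 in control vehicle. It was lower in H1047R than in control cells given insulin (-0.27 ± 0.0366, adjusted p = 5.20e-08), also without any 1 of the 12 libraries. With insulin in H1047R cells it also fell (-0.15 ± 0.0367, adjusted p = 0.000968), and this call was lost without H1047R insulin replicate 1, 2 or 3, H1047R vehicle replicate 1, 2 or 3 or control insulin replicate 2 (-0.17 to -0.13, adjusted p = 0.00116 to 0.0133). The PCNA call for insulin held in 6 of 20 settings in all. The loader subunits RFC2, RFC4 and RFC5 and RPA2, which coats single-stranded DNA, were not called in any comparison. RFC2 had a log2 fold change of 0.15 for H1047R against control in insulin (adjusted p = 0.00222), and DESeq2 called it (adjusted p = 3.09e-05).

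LIG1 had the largest insulin effect of all members in H1047R cells. LIG1 (chromosome 19, 48115445 to 48170603), the ligase that seals Okazaki fragments, had 113, 105 and 110.0 CPM in H1047R insulin libraries, 138, 146 and 139.7 in H1047R vehicle, 133, 135 and 138 in control insulin and 144, 153 and 144 in control vehicle. No H1047R insulin library reached the level of any other. LIG1 fell with insulin in H1047R cells (-0.37 ± 0.0419, adjusted p = 2.11e-09), had -0.11 ± 0.0418, adjusted p = 0.113 in control cells, and the difference of the effects was -0.25 ± 0.0591, adjusted p = 0.00129, just outside the threshold. It was also lower in H1047R than in control cells given insulin (-0.31 ± 0.0417, adjusted p = 6.36e-08). FEN1 (chromosome 11, 61792911 to 61797238), the flap nuclease that trims Okazaki fragments and the most abundant of this role per length, averaged 191 ± 2.77 CPM in H1047R insulin, 208 ± 7.88 in H1047R vehicle, 207 ± 5.15 in control insulin and 205 ± 8.10 in control vehicle. The H1047R insulin libraries of FEN1 were below all others, but the log2 fold changes of -0.12 with insulin in H1047R cells (adjusted p = 0.0121) and -0.12 for H1047R against control in insulin (adjusted p = 0.0164) did not pass. UNG, which removes uracil from DNA, was lower in H1047R than in control cells given insulin (-0.17 ± 0.0406, adjusted p = 0.000761), a call lost without H1047R insulin replicate 1, 2 or 3, H1047R vehicle replicate 1, control insulin replicate 2 or 3 or control vehicle replicate 2 (-0.18 to -0.14, adjusted p = 0.00106 to 0.00859) and with DESeq2. The UNG call held in 6 of 20 settings in all. EXO1 and BRCA1, which act in mismatch repair and recombination, were not called, and their log2 fold changes for insulin in H1047R cells were 0.029 and -0.052.

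The 3 genes of nucleotide supply all had lower levels in H1047R insulin than in the other groups. They summed to 1063 ± 26.4 CPM in H1047R insulin, 1194 ± 10.4 in H1047R vehicle, 1219 ± 9.48 in control insulin and 1168 ± 12.7 in control vehicle, and all 3 log2 fold changes for insulin in H1047R cells stayed negative with DESeq2 size factors and with library totals. RRM1 (chromosome 11, 4094707 to 4138932), the large subunit of ribonucleotide reductase, had 389, 407 and 399 CPM in H1047R insulin libraries, 452, 468 and 459 in H1047R vehicle, 469, 472 and 464 in control insulin and 428, 442 and 449 in control vehicle. It fell with insulin in H1047R cells (-0.21 ± 0.0354, adjusted p = 7.68e-06), had 0.092 ± 0.0354, adjusted p = 0.140 in control cells, and the effects differed (-0.30 ± 0.050, adjusted p = 1.35e-05). It was lower in H1047R than in control cells given insulin (-0.23 ± 0.0353, adjusted p = 6.02e-07), and none of the RRM1 calls was lost without any 1 of the 12 libraries. RRM2 (chromosome 2, 10120698 to 10211725), the small subunit, whose level is limiting in S phase, had 449.7, 459 and 473 CPM in H1047R insulin libraries, 505, 509.9 and 509.8 in H1047R vehicle, 528, 503 and 514 in control insulin and 491, 505 and 493 in control vehicle. For RRM2, insulin in H1047R cells gave -0.14 ± 0.0351, adjusted p = 0.00120, outside the threshold (DESeq2 called it, adjusted p = 0.000238), and H1047R against control in insulin gave -0.16 ± 0.0350, adjusted p = 0.000228. The second was lost without H1047R insulin replicate 1 or 2, H1047R vehicle replicate 1 or control insulin replicate 1 (-0.16 to -0.13, adjusted p = 0.00151 to 0.00416), and held in 12 of 20 settings. TYMS, thymidylate synthase, averaged 205 ± 8.67 CPM in H1047R insulin, 226 ± 0.935 in H1047R vehicle, 236 ± 3.77 in control insulin and 232 ± 4.22 in control vehicle. It was lower in H1047R than in control cells given insulin (-0.20 ± 0.0382, adjusted p = 2.82e-05), a call lost without H1047R insulin replicate 1 (-0.17, adjusted p = 0.00139) and with both strands counted (-0.13, adjusted p = 0.0786).

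Chromatin assembly and histone mRNA genes gave no call in any comparison with edgeR, where 0.158 to 23.5% of all genes tested were called. At an unadjusted edgeR p below 0.05, 0 of the 5 had an insulin effect in H1047R cells, against 41.2% of all genes tested. In control cells 2 were higher with insulin at that level, 40% against 16.4%. DESeq2 called 0 of the 5 for insulin in H1047R or control cells. H1047R against control in insulin had 1 higher and 1 lower at that unadjusted p, 40% against 44.9% of all genes tested. Without insulin there were 0, against 11.9%. SLBP (chromosome 4, 1692731 to 1712344), the protein that binds the stem-loop of histone mRNA and the most abundant of this role per length, had 85.6, 88.2 and 88.0 CPM in H1047R insulin libraries, 87.4, 87.6 and 81.4 in H1047R vehicle, 90.8, 93.6 and 87.0 in control insulin and 95.7, 93.6 and 83.4 in control vehicle. Its groups overlapped in every comparison. HELLS (chromosome 10, 94545329 to 94613905), a chromatin remodeller, had 93.9, 99.6 and 99.5 CPM in H1047R insulin libraries, 94.2, 100 and 101 in H1047R vehicle, 114, 112 and 103 in control insulin and 102, 100.0 and 99.4 in control vehicle. It was the member with the second lowest unadjusted p for insulin in control cells, where it had 0.13 ± 0.0447, adjusted p = 0.0941, and it was not called. H1047R against control in insulin gave -0.17 ± 0.0441, adjusted p = 0.00205. CHAF1A and CHAF1B, subunits of CAF-1, had 0.16 and -0.054 in that comparison (adjusted p of 0.00152 and 0.436 in edgeR), and DESeq2 called CHAF1A (adjusted p = 7.90e-05). UHRF1, which reads hemimethylated DNA behind the fork, averaged 154 ± 2.53 CPM in H1047R insulin, 159.8 ± 4.79 in H1047R vehicle, 154 ± 3.90 in control insulin and 159.7 ± 3.84 in control vehicle.

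Of the 3 genes of E2F control and checkpoint, CLSPN alone was called. For insulin in H1047R cells that is 33.3%, against 19.6% of all genes tested and 37.4% of those averaging at least 10 CPM. For H1047R against control in insulin it is 33.3%, against 23.5% and 43.4%. CLSPN (chromosome 1, 35720218 to 35769978), which carries the signal of stalled forks from ATR to CHK1, had 184, 171 and 176 CPM in H1047R insulin libraries, 152, 145 and 149 in H1047R vehicle, 155, 148 and 157 in control insulin and 145, 149 and 154 in control vehicle. It rose with insulin in H1047R cells (0.25 ± 0.0408, adjusted p = 2.88e-06), had 0.038 ± 0.0413, adjusted p = 0.739 in control cells, and the difference of the effects was 0.21 ± 0.0581, adjusted p = 0.00529, which did not pass. It was higher in H1047R than in control cells given insulin (0.21 ± 0.0406, adjusted p = 4.33e-05), a call lost without H1047R insulin replicate 1 or control insulin replicate 2 (0.18, adjusted p = 0.00129 to 0.00169). E2F1 (chromosome 20, 33675477 to 33686385), the transcription factor itself and the most abundant of the 3 per length, had 101, 109 and 107 CPM in H1047R insulin libraries, 108, 107 and 103 in H1047R vehicle, 96.0, 96.6 and 101 in control insulin and 105, 105 and 97.7 in control vehicle. E2F1 overlapped between the groups in every comparison, with 0.11 ± 0.0439, adjusted p = 0.0451 for H1047R against control in insulin. DTL, which targets CDT1 for degradation during replication, averaged 104 ± 1.63 CPM in H1047R insulin, 101 ± 3.07 in H1047R vehicle, 95.3 ± 0.653 in control insulin and 94.5 ± 2.67 in control vehicle, and its lowest adjusted p was 0.0105 in edgeR, for H1047R against control in insulin.

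**Figure D5:**
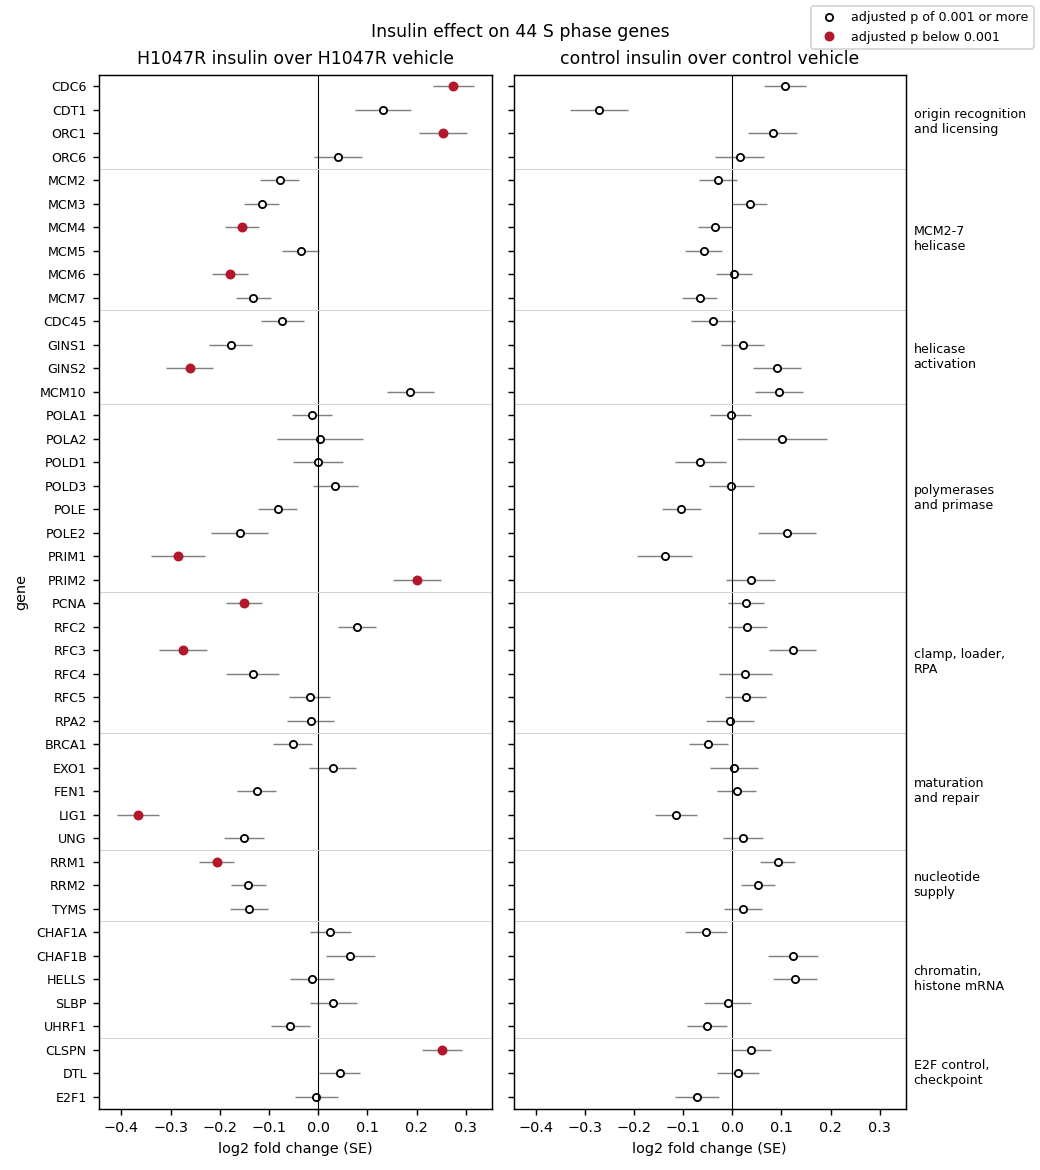
Log2 fold change for insulin against vehicle (horizontal axis) of the 44 genes in H1047R cells (left) and control cells (right), with bars for the SE of the edgeR fit and filled points for an adjusted p below 0.001. The left panel has 12 filled points, 4 above 0 and 8 below, and the right panel has none, with CDT1 farthest from 0.

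Genes of replication outside the set were counted in the same fit, from a list of 47. With insulin in H1047R cells, 6 rose and 12 fell, 38.3% against 19.6% of all genes tested and 37.4% of those averaging at least 10 CPM, with a median log2 fold change of -0.061, against -0.00061 over all genes tested. Among the genes that fell were POLE4 and RPA1 (-0.39 and -0.38). SAMHD1, which degrades deoxynucleotides and is also an interferon-induced antiviral gene, rose the most (0.58, adjusted p = 3.35e-10). TIPIN, of the fork protection complex, rose by 0.42 and DNMT1, the maintenance DNA methyltransferase, by 0.33. In control cells, edgeR called 0 of the 47 for insulin, against 1.63% of all genes tested, and DESeq2 called 1, which was lower. At an unadjusted edgeR p below 0.05, 8 were higher and 4 lower, 25.5% against 16.4% of all genes tested. H1047R against control in insulin gave 5 higher and 18 lower, 48.9% of the list against 23.5% of all genes tested and 43.4% of those averaging at least 10 CPM. The insulin effects differed for 12, 3 higher and 9 lower in H1047R cells, 25.5% against 9.07% and 18.4%.

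The E2F and RB network, a list of 21, gave 3 higher and 5 lower with insulin in H1047R cells (38.1%, median log2 fold change -0.042). The share called was 19.6% of all genes tested and 37.4% of those averaging at least 10 CPM. TFDP2, a partner of E2F factors, fell (-0.62, adjusted p = 3.32e-13), as did the cyclin CCNE2 (-0.39, adjusted p = 6.09e-09), while E2F7, a repressor among the E2F factors, rose (0.39, adjusted p = 8.09e-09). The list of G2/M and mitosis genes gave 1 higher and 20 lower of 39 (53.8%, against the same 19.6% and 37.4%). Their median log2 fold change was -0.18, against -0.044 for the S phase members in the same libraries. CDK1 (-0.39), KIF20A (-0.38) and CKS2 (-0.37) had the largest falls of called genes, and BUB1 rose (0.20, adjusted p = 4.79e-05). The 39 genes summed to 9724 ± 61.6 CPM in H1047R insulin, 11048 ± 172 in H1047R vehicle, 11224 ± 16.1 in control insulin and 11337 ± 106 in control vehicle. With insulin in control cells, 0 genes of either list were called by edgeR or DESeq2, where edgeR called 1.63% of all genes tested. At an unadjusted edgeR p below 0.05, 1 was higher and 2 lower in the E2F and RB network (14.3%). Among the mitosis genes 3 were higher and 3 lower (15.4%), against 16.4% of all genes tested.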

How the data were processed

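Per the methods, RNA of 3 independent experiments per group was made into libraries with an mRNA kit and sequenced as short read pairs. The submitters' processing notes and the methods name cutadapt, Trim Galore and STAR with hg38 (tool versions: not given in the sources used here). For the annotation, the release named is a mouse one, so the human release is not known. The values are the raw gene counts the authors deposited, read pairs placed at 1 site, and reverse-strand counts were used, which held 93.5 to 93.7% of stranded gene counts. Reads unmapped, placed at several sites, outside genes or ambiguous (3.12 to 4.09%, 8.48 to 15.4%, 3.91 to 4.55% and 3.31 to 3.61%) stayed out of library sizes and tests. Replicates differed by more than counting noise (chi-square per degree of freedom 2.70 to 5.90), so none was merged.

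A gene entered the test at a mean of 1 count or more. In edgeR 4.0.16 under R 4.3.3, the quasi-likelihood test (glmQLFit, glmQLFTest) was run with TMM factors on all 12 libraries together, leaving 8 residual degrees of freedom, and calls were made at a Benjamini-Hochberg false discovery rate below 0.001. The study used DESeq2 with the same cutoff, but corrected its p-values with independent hypothesis weighting, which was not run here. The SE is the absolute log2 fold change over the square root of the F statistic. The interaction is the insulin effect in H1047R cells minus that in control cells. Alternatives were DESeq2 1.42.0, other scalings, filters, strands, samples and thresholds, a replicate block and each library left out. The test was run on simulated counts whose spread came from the same fit, which checks the code and not the calls of members. CPM per kb divides by the length of the Ensembl canonical transcript of GENCODE, from which coordinates also came. Promoters were those of RefSeq, and MCM4, MCM5, POLD3 and RPA2 had no entry. Precision covers counting error and the spread between libraries.

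The members and lists were chosen with earlier results of these data known. Members given by library are, in each comparison, the 4 called members with the largest rise and the 4 with the largest fall, or the 2 with the lowest p where none was called, and the most abundant member of each role per length. MCM6 and MCM4 were added after their values were seen. From other lists up to 3 called genes with the largest change were named, less any item not reported here, and BUB1, the only mitosis gene that rose with insulin in H1047R cells, was named after its values were seen.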

Additional observations from a re-analysis of the deposited data

Results flagged for a closer look

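The insulin effect differed between H1047R and control cells for 4 members by a test of the difference itself, the interaction term of the edgeR fit at a false discovery rate below 0.001. The differences, insulin effect in H1047R cells minus that in control cells, were 0.40 for CDT1, -0.40 for RFC3, -0.35 for GINS2 and -0.30 for RRM1. In control cells none of the 4 passed the threshold for insulin, with log2 fold changes of -0.27, 0.12, 0.091 and 0.092 in the same order. RFC3, GINS2 and RRM1 fell with insulin in H1047R cells, and CDT1 was called in neither. The 4 members are 9.09% of the set, against 9.07% of all genes tested.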

How the results depend on the processing

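No called member changed direction under any alternative run. Of 44 members, the counts were 4 higher and 8 lower for insulin in H1047R cells, 0 and 0 for insulin in control cells, 6 and 12 for H1047R in insulin, 0 and 0 for H1047R in vehicle, and 1 and 3 for the interaction. The count of 8 became 5 with library totals in place of TMM and 5 with no filter on low counts. Insulin in control cells gave 1 lower member, CDT1, with no filter and 1 with only the groups compared in the fit. At a false discovery rate below 0.05, 21 members were called for insulin in H1047R cells: 16 fell, and MCM10 joined the 4 that rose. Insulin in control cells lowered 1, H1047R raised 10 and lowered 16 in insulin, and the interaction gave 3 higher and 12 lower. Shares of all genes tested are not given at this threshold, so these counts do not set the members apart from other genes. DESeq2 gave 5 higher and 10 lower for insulin in H1047R cells, against 2236 and 2058 of all 22756 genes tested. For H1047R in insulin it gave 8 and 10, against 2657 and 2408. With 1 library left out at a time, the counts ranged from 3 to 5 higher and 5 to 9 lower for insulin in H1047R cells, 0 to 1 lower for insulin in control cells, 4 to 8 higher and 7 to 12 lower for H1047R in insulin, and 0 to 3 higher and 2 to 3 lower for the interaction. The cause of these changes was not tested.

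The replicate numbers did not pair the libraries over all 4 groups. Same-numbered libraries had correlations of -0.22 to 0.21 in their deviations from the group means, and differently numbered ones -0.19 to 0.23. No library correlated best with its own number in every other group. Of the 18 same-numbered pairs, 2 were over 0.1, both between H1047R vehicle and H1047R insulin. Between these groups the values were 0.21, 0.14 and 0.054 for replicates 1, 2 and 3, and -0.19 to 0.12 for differently numbered pairs. A pairing of these groups alone was not tested. With the replicate number as a block, the counts were 3 and 7, 0 and 0, 6 and 11, 0 and 0, and 1 and 3, with PRIM2, PCNA and UNG losing a call. The interaction has no fit with only the groups compared, since it needs all 4. The 3 H1047R insulin libraries were the deepest of the 12, so their values have the least counting error. Members not called may still differ.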

Other observations

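Genes of the same complexes that are not among the 44 members were looked at after their values were seen. The origin recognition complex subunits ORC2, ORC3, ORC4 and ORC5 were not called for insulin in H1047R cells, with log2 fold changes of 0.070, -0.10, -0.023 and 0.20 (edgeR adjusted p from 0.00280 to 0.773), and neither was GMNN, the inhibitor of CDT1 (0.035 ± 0.0470, adjusted p = 0.633). DBF4, the activating subunit of the kinase that fires origins, rose (0.21 ± 0.0494, adjusted p = 0.000706), while its catalytic partner CDC7 had -0.017 ± 0.0521, adjusted p = 0.853. Among the RPA genes, RPA1 and RPA3 fell with insulin in H1047R cells (-0.38 ± 0.0372, adjusted p = 4.88e-11 and -0.34 ± 0.0546, adjusted p = 2.73e-06), whereas RPA2, a member, had -0.015 ± 0.0477, adjusted p = 0.857.

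Some other genes of nucleotide supply, also looked at after their values were seen, fell and others did not. TK1 and DTYMK fell with insulin in H1047R cells by 0.27 and 0.31 on the log2 scale (edgeR adjusted p of 1.44e-07 and 1.72e-07), and the insulin effects of both differed between H1047R and control cells (adjusted p of 7.47e-05 and 6.68e-05). DUT and DCK had -0.14 and -0.15 with insulin in H1047R cells (adjusted p of 0.0141 and 0.0300), which did not pass, and both were lower in H1047R than in control cells given insulin (-0.31 ± 0.0441, adjusted p = 2.55e-07, and -0.32 ± 0.0524, adjusted p = 2.86e-06). RRM2B, another subunit of ribonucleotide reductase, had a positive log2 fold change for insulin in H1047R cells and was not called (0.11 ± 0.0510, adjusted p = 0.0867).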
